A study of Komagataella phaffii GS115 with 12 samples.

Results

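YDR502C and YLR180W are the systematic names of SAM2 and SAM1, the genes that encode methionine adenosyltransferase (S-adenosylmethionine synthetase) in the baker's yeast Saccharomyces cerevisiae. Both were taken by name, with earlier results of these data known, and both were found, 2 of the 2390 rows of the deposited table. The p-values of these rows given below do not allow for that choice. The samples were total RNA of the methylotrophic yeast Komagataella phaffii GS115, also called Pichia pastoris, on 12 one-colour Cy3 arrays, 3 from separate cultures in each of 4 groups. The control was GS115/3.5K, with the empty vector pPIC3.5K integrated, at 72 h of methanol induction. GS115/DS56, called DS56 below, held the recombinant methionine adenosyltransferase gene DS56 and was also sampled at 72 h. G12-CBS held the same recombinant gene and had its CYS4 gene under G12, a weak promoter meant to lower it, and was sampled at 72 h and at 24 h. All cultures grew in BSM medium and were induced with methanol, and those of 72 h were supplied with L-methionine at 24 h, whereas the 24 h cultures had not been fed. By their phenotype label, DS56 and the fed G12-CBS cultures make much S-adenosylmethionine, and the control and the unfed G12-CBS cultures little. The sample titles mark the strain differently: G12-CBS carries HP at both times, as DS56 does, and only the control carries LP. No source used here gives the promoter, copy number or sequence of the recombinant gene or the number of clones behind a strain.

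Methionine adenosyltransferase joins methionine to the adenosyl part of ATP, and its product S-adenosylmethionine is the main methyl donor of the cell. After the methyl group is passed on, S-adenosylhomocysteine is split to homocysteine, which is either methylated back to methionine or drawn into cysteine synthesis by cystathionine beta-synthase, the product of CYS4. S. cerevisiae keeps a pair of closely similar genes for the enzyme, SAM1 and SAM2. The row names are those of S. cerevisiae and the RefSeq table of 5040 K. phaffii genes holds none of them. Which K. phaffii transcript the probes of a row bind, whether the probes of one row also bind the transcript of the other, and which row the recombinant transcript would bind, was not determined here. The levels of the 2 rows are therefore not compared as amounts, and each row is followed across the groups. Their difference on an array is given below only for how it changes between arrays.

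The place of a row on its array is part of what these values show. The values are on the log2 scale, from 5.62 to 15.76. The leading 179 ranks carried the same value on every array, so that a value in this range is fixed by the row's rank alone. Rank 1 stood at 15.76, rank 2 at 15.58 and rank 3 at 15.45 throughout. A rank is a place in the deposited distribution of 2390 rows and not an amount of transcript.

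YDR502C (SAM2) was high on every array of a strain with the recombinant gene. In the control it stood at 10.17, 10.48 and 10.76. DS56 gave 15.76 on all 3 arrays and G12-CBS at 72 h the same value on all 3. G12-CBS at 24 h gave 15.76, 15.58 and 15.76. Every recombinant array lay above every control array, as in 1.97% of all rows, and 8 of the 9 lay at the highest value of the table. The exception, G12-CBS 24 h replicate 2, was at the second-highest value.

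In ranks, YDR502C rose from places 69, 62 and 55 on the control arrays to place 1 on the 8 arrays and place 2 on the ninth. Already in the control it lay above 97.1 to 97.7% of the rows. Only 1 row held the highest value on each array, the controls included, so YDR502C was tied with no other row in the deposited values. Where it was the top row it lay 0.18 above the next, the step between the top 2 places on every array. Both follow from the fixed values of the leading ranks. They do not show whether the signals behind several rows were at a common limit. A value at the top can show neither a further rise nor a difference among the arrays that reach it, whatever the signal behind them.

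**Figure D1:**
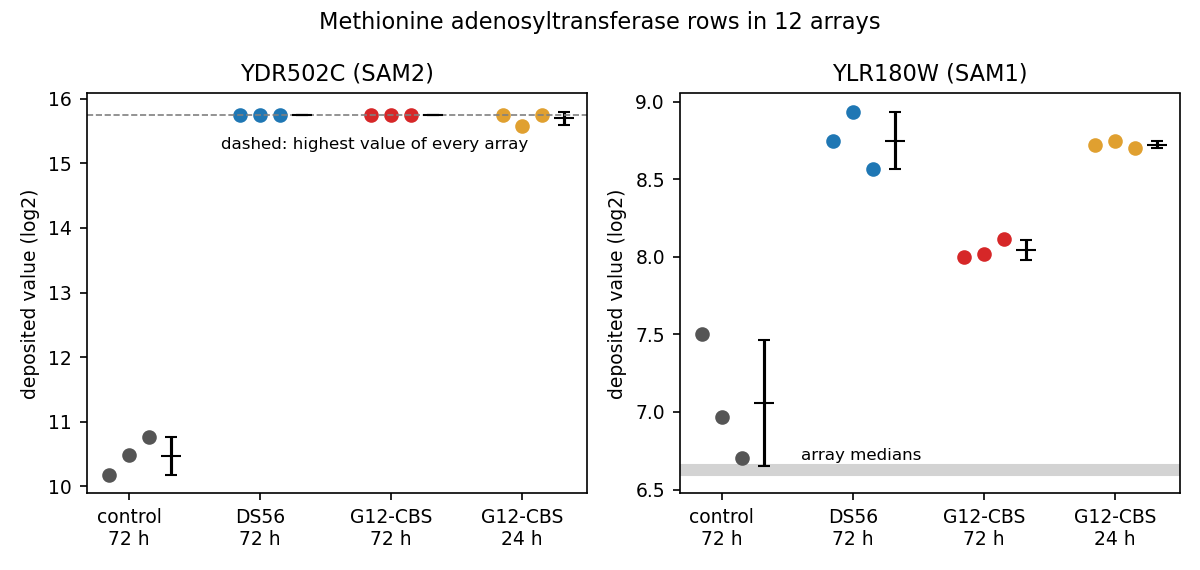
Deposited log2 values of YDR502C (left) and YLR180W (right) on each of the 12 arrays, with points for arrays and, beside them, the group mean with its SD (n = 3). YDR502C lay at 10.17 to 10.76 in the control and at 15.58 or 15.76 elsewhere, and YLR180W was lowest in the control, higher in G12-CBS at 72 h and highest in DS56 and G12-CBS at 24 h, which overlapped.

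YDR502C rose in DS56 and in G12-CBS at 72 h against the control by 5.29 ± 0.13 (SE of limma's moderated fit, 3 arrays a group) on the log2 scale, 39.0-fold on the deposited values, from 10.47 ± 0.29 (SD, n = 3). The adjusted p was 1.01e-16 in each, and the 2 comparisons share their control arrays. With all 9 recombinant arrays against the control, the groups weighted equally, the difference was 5.27 with a 95% interval from 5.04 to 5.49 (limma's adjusted p = 2.14e-18). An exact two-sided permutation test of the 9 against the 3 arrays gave p = 0.00455, the smallest it can give. The test treats the 9 arrays as alike, but G12-CBS enters at 2 times. Its 24 h cultures also differ from the control in time and feeding. Both limits hold wherever the recombinant groups are pooled below. The largest rise after that of YDR502C was 2.16 in DS56 (YNL122C) and 3.09 in G12-CBS at 72 h (YNL190W). For the mean of the recombinant groups it was 1.45, and the row that held it was YLR180W. Because the recombinant arrays lie at the top of the scale, an SD of 0 there is no measure of replicate spread, the SE and p-values may be too small, and the ratio in the cells may lie on either side of 39.0.

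Across all rows, 18.1% passed an adjusted p of 0.05 in DS56 against the control and 12.1% were higher. The shares in G12-CBS at 72 h against the control were 9.21% and 5.02%, and for the mean of the recombinant groups 16.1% and 9.62%. The 1.97% of rows with all 9 recombinant arrays above all 3 control arrays were 47 in number, among them YDR502C and YLR180W.

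Between strains and times with the recombinant gene, YDR502C could not be ranked. G12-CBS and DS56 at 72 h had the same value on all 6 arrays, a difference of 0 with a limma interval from -0.28 to 0.28. From 24 h to 72 h in G12-CBS the difference was 0.06, from -0.22 to 0.34 (limma's adjusted p = 0.782), and it rested on the 1 array at rank 2. Without that array the difference was 0. These intervals come from the spread of other arrays and rows and do not reach behind the top value, so they do not show that the strains or times had like amounts of the transcript.

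**Figure D2:**
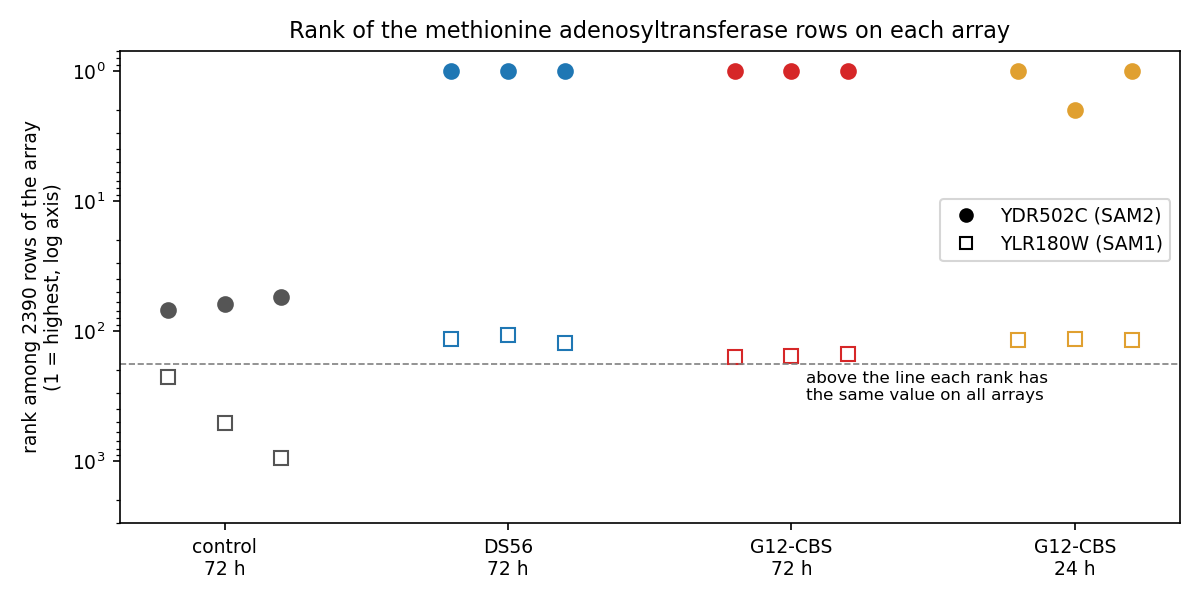
Rank of YDR502C (filled circles) and YLR180W (open squares) among the 2390 rows of each array, on a log axis with rank 1 at the top. YDR502C moved from ranks 55 to 69 in the control to ranks 1 and 2, and YLR180W from ranks 225 to 947 to ranks 108 to 158.

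The rows at the head of the other arrays place this rank in context. YLR154C-H held rank 1 on 4 arrays, the 3 controls and G12-CBS 24 h replicate 2, and rank 2 on the other 8. Its difference in DS56 against the control was therefore -0.18, the step between the top 2 places (limma's adjusted p = 0.284). YLR162W-A held rank 3 on 11 arrays and YPR080W on the remaining 1, a DS56 array. YLR075W was at rank 2 on all 3 control arrays and at ranks 4 to 6 on the recombinant ones. It fell by 0.38 in DS56 against the control (adjusted p = 0.0239), a call lost with only the 6 arrays compared (adjusted p = 0.0567). Without DS56 replicate 2 it was lost as well (adjusted p = 0.0930).

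YLR180W (SAM1) also rose in the recombinant strains, but did not reach the top of the scale. In the control it stood at 7.50, 6.97 and 6.70, with an SD of 0.41 that exceeded that of 93.9% of rows. DS56 gave 8.74, 8.94 and 8.57. G12-CBS at 72 h gave 8.00, 8.02 and 8.12, and at 24 h 8.72, 8.74 and 8.70. The arrays of G12-CBS at 72 h lay above all controls and below all 6 arrays of the other recombinant groups, while those 6 overlapped among themselves.

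The control values of YLR180W lay 0.88, 0.36 and 0.10 above the medians of their arrays, at ranks 225, 511 and 947. No detection flags were used here, so the control level was not shown to lie above background, and folds against it are folds of the deposited values. On the recombinant arrays the row was at ranks 108 to 158, inside the range where each rank has 1 value.

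Against the control, YLR180W rose in DS56 by 1.69 ± 0.16 (SE), from 7.06 ± 0.41 (SD, n = 3) to 8.75 ± 0.18, which is 3.23-fold (limma's adjusted p = 4.21e-07). Only 4 of 2390 rows had a larger rise there. In G12-CBS at 72 h it rose by 0.99 ± 0.16, to 8.04 ± 0.06, or 1.98-fold (adjusted p = 0.000295), and 24 rows rose more. Fitted to these 6 arrays only, the adjusted p was 0.0460, near the threshold. The 24 h cultures of G12-CBS stood at 8.72 ± 0.02, which is 1.67 ± 0.16 above the control (adjusted p = 2.83e-07, where 19.7% of all rows passed), with strain, time and feeding all different. Over the recombinant groups together the rise was 1.45, with a 95% interval from 1.18 to 1.72 (adjusted p = 1.68e-07) and p = 0.00455 in the exact two-sided permutation test, the smallest it can give.

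G12-CBS at 72 h was lower than DS56 in YLR180W by 0.71 on the log2 scale, a difference of -0.71 ± 0.16 (SE) or 1.63-fold (limma's adjusted p = 0.00311), and the 3 arrays of each strain did not overlap. Of all rows, 22.4% passed in this comparison and 14.1% were lower, and 24.6% were lower without overlap between the groups. The strain's own 24 h cultures were higher than its 72 h cultures by nearly as much: from 24 h to 72 h YLR180W fell by 0.68 (SE 0.16), 1.60-fold (adjusted p = 0.00423). There, 22.8% of all rows passed and 14.6% were lower, and 26.2% were lower without overlap. Time on methanol and L-methionine feeding changed together between these groups and cannot be told apart.

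For YLR180W the order of the groups, from the highest, was DS56, the 24 h cultures of G12-CBS, its 72 h cultures and the control. DS56 and G12-CBS at 24 h, neighbours in this order, differed by -0.03 ± 0.16 (24 h minus DS56, 95% interval from -0.36 to 0.31, limma's adjusted p = 0.999), in a comparison where 0.962% of all rows passed. Each other pair passed the test. The control, LP by title, was the lowest, and the unfed G12-CBS cultures, low-producing by the phenotype label but HP by title, were next to the highest. Array medians were higher in the 2 groups at the head of this order (6.65 to 6.66) than in the other 2 (6.59 to 6.62). With each array centred on its median, the difference of G12-CBS from DS56 was -0.66 and from its 24 h cultures -0.63 (adjusted p = 0.00518 and 0.00699).

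**Figure D3:**
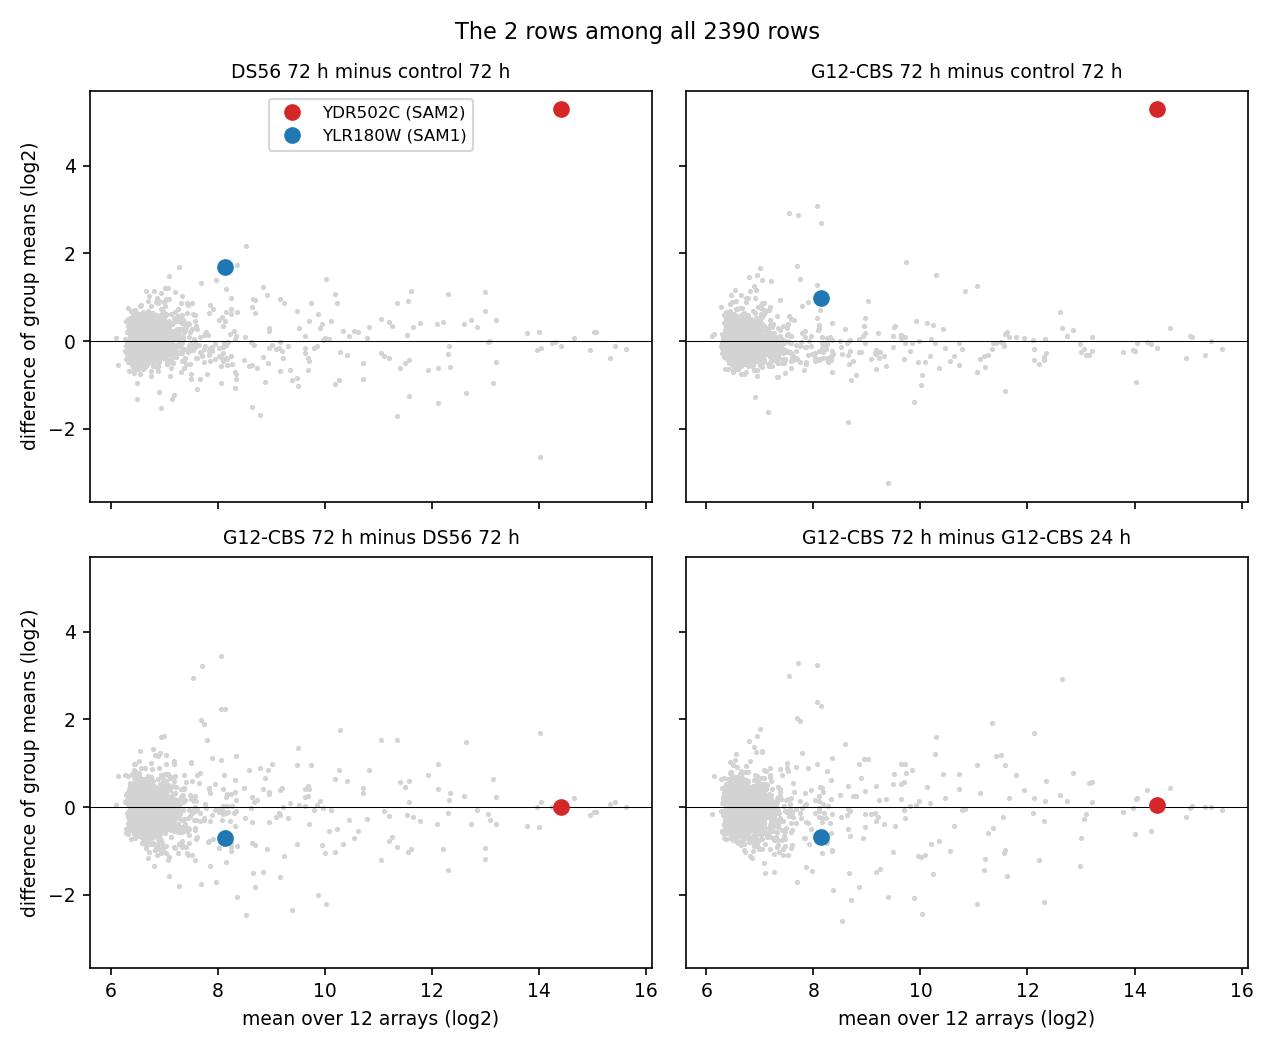
Difference of group means (log2) against the mean over 12 arrays (log2) for all 2390 rows (grey) in 4 comparisons, with YDR502C in red and YLR180W in blue. YDR502C lies alone at 5.29 in both comparisons with the control and at 0 and 0.06 in the others, while YLR180W is at 1.69 and 0.99 against the control and at -0.71 and -0.68 in the others.

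Whether the 2 rows changed by unequal amounts cannot be settled from these values. On a single array the value of YDR502C minus that of YLR180W ran from 2.67 to 4.06 in the control and from 6.82 to 7.76 on the recombinant arrays. Only how this quantity changes between arrays can be read, since the probes of the rows differ. YDR502C lies at the top value on 8 of the 9 recombinant arrays, so its rise in the cells may be larger or smaller than these values give. YLR180W was not shown above background in the control, so its rise may be understated. No test of this quantity is therefore given. Over the 12 arrays the values of the rows correlated at Pearson's r = 0.865, a description of arrays that fall into a control group and a recombinant one.

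The rows most like each of them were found by Pearson's r of the log2 values over the 12 arrays, given without a test because the arrays fall into groups. For YDR502C these were YGL025C (r = 0.923), YOR373W (0.898), YJL019W (0.895) and YDL081C (0.889). All 4 had their controls below all 9 other arrays, as 1.97% of all rows did. Rows chosen for likeness to YDR502C tend to do so, since its own values split the arrays in this way. None of the 4 changed by nearly as much as YDR502C: YGL025C went from 6.35 ± 0.08 (SD, n = 3) in the control to 6.81 ± 0.11 in DS56, and YDL081C from 7.13 ± 0.12 to 7.72 ± 0.06. The control means of YGL025C, YOR373W and YJL019W, 6.28 to 6.35, lay below every array median (6.59 at the lowest), and that of YDL081C above.

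YLR180W was followed most closely by YDR261C-C (r = 0.942), YLR196W (0.935), YOR010C (0.915) and YBR049C (0.910). The means of all 4 lay lower in G12-CBS at 72 h than in DS56 and in G12-CBS at 24 h. Rows chosen for likeness to YLR180W tend to do so. The control was not set apart in most: control replicate 1 of YDR261C-C, YOR010C and YBR049C lay above an array of G12-CBS at 72 h. Only YLR196W had its controls below all other arrays. YDR261C-C had 6.17 ± 0.18 (SD, n = 3) in the control, 6.76 ± 0.05 in DS56, 6.37 ± 0.10 in G12-CBS at 72 h and 6.78 ± 0.06 at 24 h. In the control, the means of these rows, 6.07 to 6.26, lay below every array median (6.59 at the lowest), on a scale that starts at 5.62. Their control levels are thus low in the table.

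**Figure D4:**
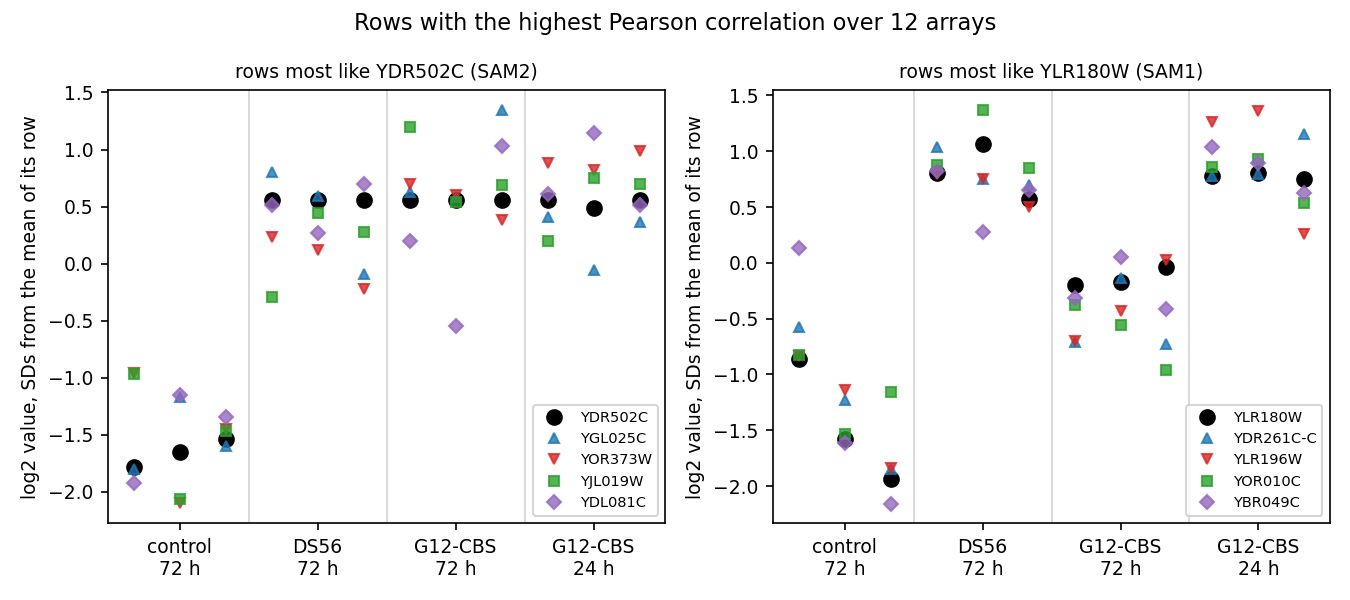
Values of YDR502C (left) and YLR180W (right), in black, and of the 4 rows with the highest Pearson correlation with each, as SDs from the row's own mean over the 12 arrays, with 3 arrays per group. The left rows, chosen for their likeness to YDR502C, separate the control from the other groups. The right rows, chosen for their likeness to YLR180W, place G12-CBS at 72 h below DS56 and G12-CBS at 24 h. Among them, YDR261C-C, YOR010C and YBR049C show overlap of the control with G12-CBS at 72 h.

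The other genes of the pathway were taken from a list of 52 S. cerevisiae systematic names, with symbols from standard nomenclature of that species and not from the files. Of these, 26 were rows of the table: 3 of 10 for the methionine cycle and remethylation, 4 of 6 for transsulfuration and glutathione, 4 of 11 for sulfate assimilation, 2 of 4 for the homoserine branch, 1 of 3 for transport, 5 of 9 for polyamines and methylthioadenosine salvage, 1 of 3 for lipid methyltransferases and 6 of 6 regulators. The systematic name of CYS4 was not among the rows of the table, so whether the G12 promoter lowered it could not be checked here. Roles given below are those in S. cerevisiae.

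In DS56 against the control, 2 of the 26 rows rose, none fell and 24 did not pass, 7.69% of the list against 18.1% of all rows. The list's median difference was 0.11 and that of all rows 0.04. YLR058C (SHM2), a serine hydroxymethyltransferase that feeds one-carbon units to methionine synthesis, rose by 0.57 ± 0.17 (SE, limma's adjusted p = 0.0234). Its call was lost with only the 6 arrays compared (adjusted p = 0.0750) and without control replicate 2 or 3 or DS56 replicate 1 or 2 (adjusted p up to 0.125). YGL202W (ARO8), an aminotransferase that also serves methionine salvage, rose by 0.54 ± 0.13 (adjusted p = 0.00760). Without DS56 replicate 3 the adjusted p of YGL202W was 0.0516. Leaving out any 1 of the DS56 arrays left 1 called row of the list. The row for methionine synthase, YER091C (MET6), the enzyme that rebuilds methionine, stood at 6.67 ± 0.20 in the control and 6.65 ± 0.04 in DS56, near the array medians.

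In G12-CBS at 72 h against the control, 1 of the 26 rows rose and 2 fell, 11.5% against 9.21% of all rows, with medians of -0.04 for the list and -0.02 for all rows. YGL184C (STR3), cystathionine beta-lyase, which turns cystathionine into homocysteine, rose from 6.24, 6.13 and 6.21 to 7.04, 7.34 and 7.69. That is 1.17 ± 0.14 (SE) or 2.25-fold (limma's adjusted p = 1.30e-05), from control values below the array medians. YER043C (SAH1), the hydrolase that splits S-adenosylhomocysteine, fell from 8.12, 8.03 and 7.67 to 7.31, 7.27 and 7.26, a difference of -0.66 ± 0.13 (adjusted p = 0.00378). With only the 6 arrays compared, the adjusted p of YER043C was 0.0758 and YGL184C was the 1 row of the list still called. YBR213W (MET8), an enzyme of siroheme synthesis, fell by 0.43 (adjusted p = 0.0420), a call that 7 of 14 alternative fits did not keep, among them those without control replicate 1 or 2 and without G12-CBS 72 h replicate 2 or 3.

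Set against DS56, G12-CBS at 72 h was higher in 1 row of the list and lower in 6, 26.9% against 22.4% of all rows, with medians of -0.14 and -0.04. YGL184C was higher by 1.04 ± 0.14 (SE, limma's adjusted p = 1.99e-05) and YER043C lower, at -0.80 ± 0.13 (adjusted p = 0.000199). YLR058C stood at -0.58 ± 0.17 (adjusted p = 0.0154), and lost the call without DS56 replicate 1 or 2 or G12-CBS 72 h replicate 2 (adjusted p up to 0.0985). YDR253C (MET32), a transcription factor of the sulfur genes, was at -0.47 ± 0.14 (adjusted p = 0.0231), and lost it without DS56 replicate 1 or 2 or G12-CBS 72 h replicate 3 (adjusted p up to 0.116). The other 3 lower rows were YAL012W (CYS3, adjusted p = 0.0242), YFR030W (MET10, adjusted p = 0.0457) and YGL202W (adjusted p = 0.0453). Those of YFR030W and YGL202W are near the threshold. The calls of these 3 rows were not followed singly in the alternative fits. Leaving out DS56 replicate 1 or replicate 2 left 2 called rows of the list, and leaving out G12-CBS 72 h replicate 1 left 4.

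From 24 h to 72 h in G12-CBS, 1 row of the list rose and 4 fell, 19.2% against 22.8% of all rows, with medians of -0.08 and -0.05. They were called in the comparison with DS56 too, which shares the 72 h arrays. YGL184C rose by 1.07 ± 0.14 (SE, limma's adjusted p = 1.37e-05), from 6.29 ± 0.14 (SD, n = 3) to 7.36 ± 0.33. YER043C fell by 0.70 (adjusted p = 0.000700) and YLR058C by 0.77 (adjusted p = 0.00202). YDR253C fell by 0.43 (adjusted p = 0.0333), a call lost in 7 of 14 alternative fits, those without G12-CBS 72 h replicate 2 or 3 or any 1 of the 24 h arrays among them, and YAL012W by 0.42 (adjusted p = 0.0250). The call of YAL012W was not followed singly in the alternative fits. Without G12-CBS 24 h replicate 3, 3 rows of the list were called.

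For the mean of the recombinant groups against the control, 3 of the 26 rows rose and none fell, 11.5% against 16.1% of all rows, with medians of 0.05 and 0.04. YGL184C was at 0.46 ± 0.12 (SE, limma's adjusted p = 0.0119), a mean over groups of which only G12-CBS at 72 h had passed against the control. YLR058C rose by 0.44 (adjusted p = 0.0328) and YGL202W by 0.39 (adjusted p = 0.0183). Both calls were lost with array weights and without control replicate 2 or 3, and that of YLR058C also without DS56 replicate 1 or 2 or G12-CBS 24 h replicate 2. Without control replicate 2 the difference of YLR058C was 0.26 (adjusted p = 0.225). With array weights, or without control replicate 2, 1 row of the list was called. In this pooled comparison none of these rises came near that of YLR180W, at 1.45, or YDR502C, at 5.27. In G12-CBS at 72 h alone against the control, YGL184C rose by 1.17 and YLR180W by 0.99.

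**Figure D5:**
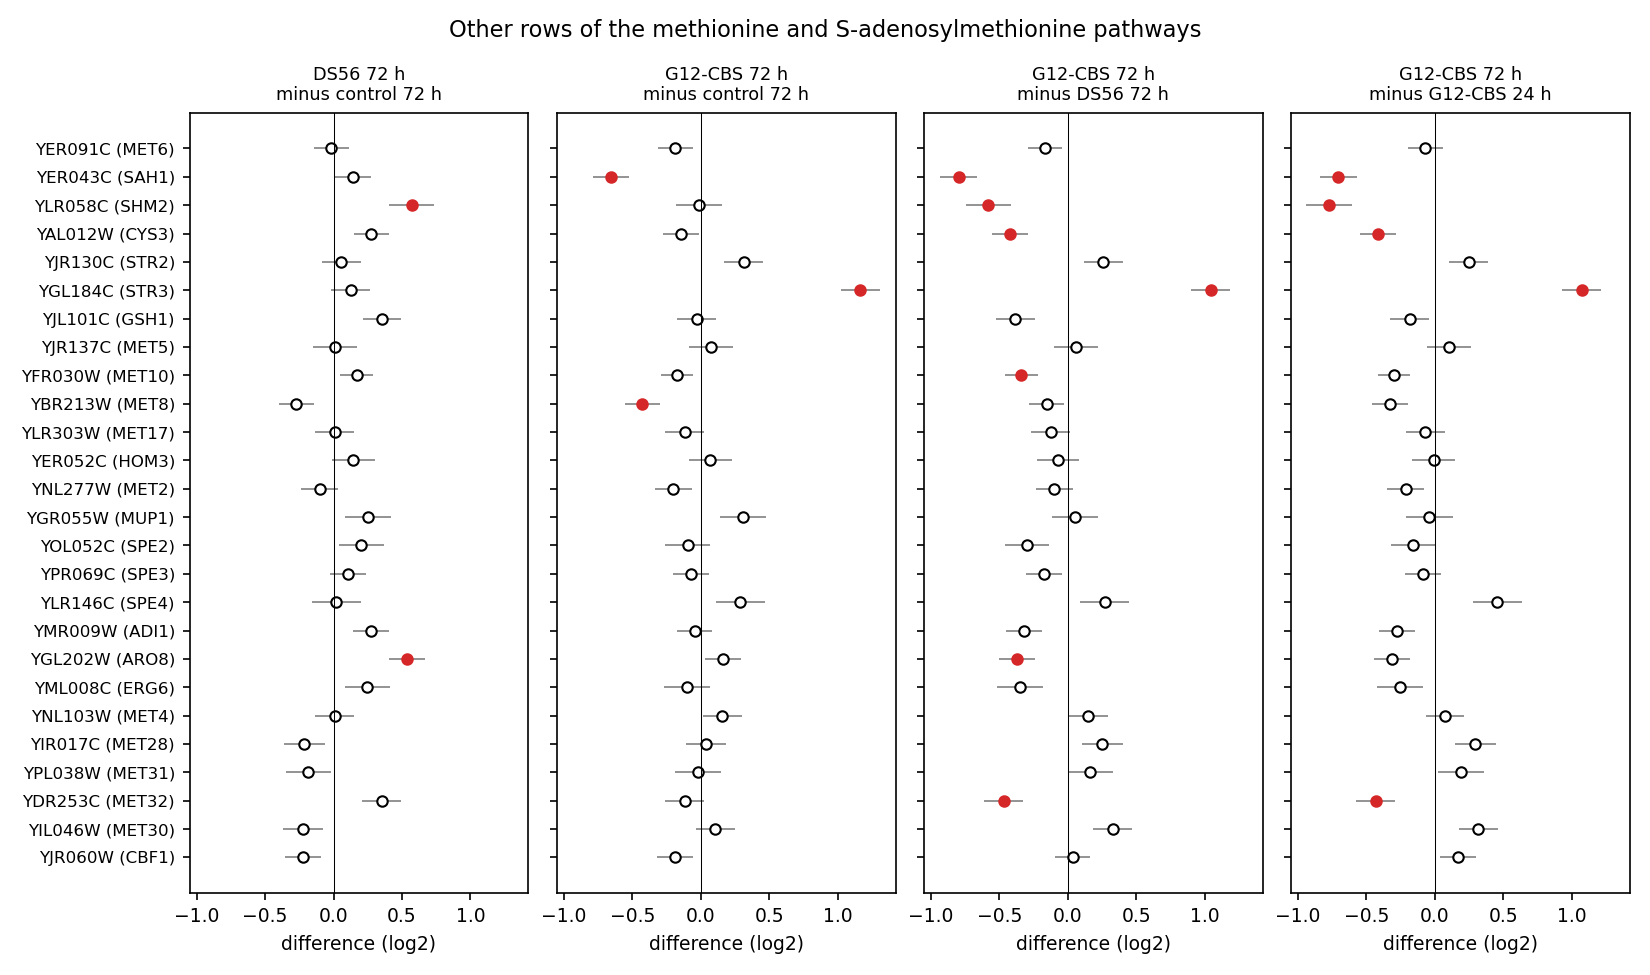
Difference of group means (log2) with its SE for the 26 other rows of the methionine and S-adenosylmethionine pathways in 4 comparisons, with rows past an adjusted p of 0.05 in red and the rest open. The largest difference is that of YGL184C (STR3), at 1.17, 1.04 and 1.07 in the 3 comparisons of G12-CBS at 72 h, and YER043C (SAH1) is lower in the same 3.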

How the data were processed

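Total RNA of 12 cultures was hybridised to one-colour NimbleGen arrays, which per the series' design text measure 5777 genes with 8 probes each. The table holds 2390 rows of deposited log2 values, which the authors made with RMA per the submitters' processing notes, where no version stands. No source used here gives the background correction or any filter on rows. Values were used unchanged. Groups were taken from the sample titles. The number of arrays limits the precision.

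Differences were fitted over all rows and 12 arrays with limma 3.58.1 in R 4.3.3 (lmFit, eBayes, a mean per group, no replicate block), with Benjamini-Hochberg adjustment over 2390 rows, a threshold of 0.05 and two-sided tests. Single values were tested by exact permutation over arrays. The same test of YDR502C minus YLR180W within arrays was run and is not reported, because the top value limits one row and an unknown background the other. The model was tested on simulated data with independent noise and no fixed top value. That test does not bear on YDR502C at the top value. Members, pathway list and tests were chosen with earlier results of these data known. Named rows are the 2 members, the 4 most correlated rows of each, rows at ranks 1 to 3 and the 4 largest called differences of the list. Others were named after their values were seen, and so were the comparisons of G12-CBS at 24 h with the control and DS56. Alternatives were a replicate block, only the arrays compared, quantile normalization, median centring, removal of the dimmest 25% of rows, variance trend with robust moderation, array weights, the top value set to the second-highest, leaving out each array and ranks. Plots were made in matplotlib 3.10.9. No sequence of a gene or probe was used here.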

Additional observations from a re-analysis of the deposited data

Results flagged for a closer look

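The difference of YLR180W from the control was smaller in G12-CBS at 72 h (0.99) than in DS56 (1.69), and the difference between them, -0.71, passed limma's test (adjusted p = 0.00311) with 3 arrays a group that did not overlap. Of all rows, 22.4% passed in this comparison, 14.1% were lower, and 24.6% were lower without overlap, so neither trait sets YLR180W apart. The control arrays are the same for both strains and cancel in this difference. The groups of 3 arrays were too small for a check of single arrays that stand apart.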

How the results depend on the processing

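For YLR180W the called differences against the control at 72 h in both strains, between these strains and between the times of G12-CBS, and for YDR502C those against the control at 72 h in both strains, kept their direction and their call in every limma fit tried, with adjusted p-values up to 0.0460. G12-CBS at 24 h against the control was fitted once, without alternatives. Of the exact permutation tests, those of 3 against 3 arrays cannot go below 0.1 and so passed none of these: at unchanged differences of 5.29 for YDR502C and 1.69, 0.99, -0.71 and -0.68 for YLR180W, and in ranks of 61 places for YDR502C and 445, 407, -38.7 and -37.3 for YLR180W (DS56 and G12-CBS against control, G12-CBS against DS56, and 72 h against 24 h). Leaving out 1 array gave 5.14 to 5.43 for YDR502C against control in either strain, and 1.52 to 1.91, 0.81 to 1.21, -0.80 to -0.61 and -0.72 to -0.66 for YLR180W in that order. For all rows, the counts of calls against 433, 220, 385, 535 and 546 as reported (DS56, G12-CBS and mean of the recombinant groups against control, then G12-CBS against DS56 and 72 h against 24 h) ran from 239 to 390, 164 to 243, 263 to 420, 355 to 514 and 369 to 523 when 1 array was left out. The lowest for DS56 against control were 253, 239 and 246 without DS56 replicates 1, 2 and 3, and 355 for G12-CBS against DS56 came without DS56 replicate 2. G12-CBS against control gave 51 with only the arrays compared and 97 with array weights, and the mean of the recombinant groups 197 with array weights, and the cause was not tested. The replicate block gave 395, 216, 378, 534 and 539 calls and changed no call of YDR502C or YLR180W. The numbers were not taken to pair cultures. Deviations from the group means of arrays with the same number had correlations from -0.12 to 0.18, and 2 of 18 pairs passed 0.1. Pairs with unlike numbers were not set beside them, so these values do not settle whether cultures were paired. Quantile normalization lowered the list's called rows from 7 to 4 for G12-CBS against DS56 and from 5 to 3 for 72 h against 24 h. The arrays' top value limits YDR502C, and without detection flags the signal of YLR180W over background in the control is unknown.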
